A study of Populus deltoides with 38 samples.

Results

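The microRNA395 family of poplar leaves comprised 15 of the 1162 mature small RNA sequences listed for these libraries, taken as every entry whose name contains miR395 in either arm, with reads added up over hairpins for each sequence. The genes listed as cut under a name of the family were 9 of the 855 genes in the degradome tables. Of these 9, only 3 had reads at the site in both degradome libraries, and 5 rested on 1 read in 1 of them. Their mRNA levels were read from the 39572 loci of the mRNA tables. Leaves came from Populus deltoides (strain label monilifera (Aiton) Eckenw), grown from stem cuttings and then in hydroponics. The nutrient solution held 0 (low), 100 (middle) or 1500 µM (high) sulfate for 12 days, followed by 21 days of the same sulfate with either 0 or 50 µM CdCl2. Each of the 6 groups had 3 mRNA and 3 small RNA libraries, and the 9 RNAs of each cadmium level were pooled into 1 degradome library, so that the degradome has no replicates and no sulfate axis. Libraries are named by cadmium, sulfate (L, M or H) and number, as in −CdL1. All groups share the species, the leaf tissue and the hydroponic culture, and the labels do not say which of the 72 plants entered which library, so p-values rest on the spread of the 3 libraries of a group, and that spread may be purely technical.

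In plants, sulfate is first activated by ATP sulfurylase before it is reduced and built into cysteine, and glutathione and phytochelatins, the thiols that bind cadmium, are made from cysteine. In Arabidopsis, miR395 accumulates when sulfate is scarce and guides the cutting of the mRNAs of ATP sulfurylases and of a low-affinity sulfate transporter. A plant miRNA is cut out of a hairpin precursor as a duplex of a 5p and a 3p strand, and for miR395 the 3p strand is the guide. The degradome assay sequences the 5′ ends of uncapped RNA fragments, which pile up opposite the middle of a guide where a transcript has been cut. The deposited tables give the target loci by Potri identifier only; none of the 39512 Potri identifiers matched the reference gene table, so no name or function is given to a target here, and neither the leaf origin nor other genes of sulfate assimilation could be checked through named genes.

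The sequences that carry the family's reads are shown first, because small differences between them separate the members. They are the deposited sequences, written 5′ to 3′ with bases 2 to 8, the seed, in capitals. The first 4 are guide (3p) strands.
ptc-miR395b: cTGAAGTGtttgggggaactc
stu-miR395a_1ss1CA: aTGAAGTGtttgggggaactc
ptc-miR395a: cTGAAGGGtttggaggaactc
stu-miR395a_L+1: cCTGAAGTgtttgggggaactc
The other 5 are 5p strands.
ptc-MIR395b-p5: gTTCCCTTgagcacttcact
ptc-MIR395c-p5: tTCCTCTGagcacttcattgg
ptc-MIR395k-p5: gTTTCCCTgaccacttcact
ptc-MIR395d-p5_1ss5TC: tTCCCCTGagcacttcactgg
ptc-MIR395a-p5: gTTCCTCCtagcttcttcagt

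Counted from 1 at the 5′ end of ptc-miR395b, stu-miR395a_1ss1CA differs by C1A outside the seed, and ptc-miR395a by T7G within the seed and G14A beyond it. The variants stu-miR395a_L+1, L+2 and L+3 are ptc-miR395b with 1, 2 or 3 more bases at the 5′ end, which moves the seed by as many positions. Of the 15 sequences 9 were 5p and 6 were 3p strands, and they held 12 different seeds. The seed TGAAGTG, shared by ptc-miR395b and stu-miR395a_1ss1CA, accounted for 82.0% of all miR395 reads and ptc-miR395b alone for 79.2%.

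The sequences were placed on 11 hairpin entries at 7 loci, 3 on chromosome 16, 3 on chromosome 6 and 1 on chromosome 2; the genome build is not given in the sources used here. ptc-miR395b was listed at 6 of the entries, so its reads cannot be assigned to 1 hairpin. Of the 5p strands shown, ptc-MIR395b-p5, ptc-MIR395k-p5 and ptc-MIR395a-p5 were each listed at 1 hairpin, and ptc-MIR395c-p5 at the hairpins c and j. Precursors of the b, k and a hairpins are shown as deposited, with both mature strands in capitals, since their strands are followed through the results.
ptc-MIR395b, chr6:7613271-7613368, plus strand: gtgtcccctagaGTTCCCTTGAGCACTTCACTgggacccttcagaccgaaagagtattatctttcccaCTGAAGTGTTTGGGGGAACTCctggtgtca
ptc-MIR395k, chr16:14153955-14154102, minus strand: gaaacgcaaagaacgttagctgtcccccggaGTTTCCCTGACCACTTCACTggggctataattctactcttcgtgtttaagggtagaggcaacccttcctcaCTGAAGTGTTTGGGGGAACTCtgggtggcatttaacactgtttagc
ptc-MIR395a, chr2:14658627-14658852, plus strand: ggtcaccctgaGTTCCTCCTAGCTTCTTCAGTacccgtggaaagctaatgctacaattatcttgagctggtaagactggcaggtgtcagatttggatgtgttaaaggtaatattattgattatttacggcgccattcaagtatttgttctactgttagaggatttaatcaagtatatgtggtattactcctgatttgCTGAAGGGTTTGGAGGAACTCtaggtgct

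miR395 was more than 100 times as abundant at low sulfate as at any other supply. The family's summed reads were compared as CPM, counts scaled to a common number of listed reads with trimmed-mean library factors. At low sulfate without cadmium the 3 libraries held 77180, 80830 and 75660 CPM, and at middle sulfate 336.5, 298.5 and 267.5 CPM. High sulfate without cadmium gave 304.0, 194.2 and 199.5 CPM. Every low-sulfate library lay above every other library, and the ranges of middle and high sulfate overlapped. The mean was 77890 ± 2660 CPM at low and 300.8 ± 34.6 at middle sulfate (SD, n = 3), a ratio of 259, and a log2 difference of 8.02 ± 0.31 (SE, adjusted p = 8.59e-16 by edgeR's quasi-likelihood test with Benjamini-Hochberg adjustment over 144 families and single sequences). Against high sulfate, at 232.5 ± 61.9 CPM, the log2 difference was 8.39 ± 0.31 (edgeR, adjusted p = 4.64e-16).

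With 50 µM CdCl2 the low-sulfate libraries held 31800, 40970 and 49430 CPM. Those at middle sulfate held 381.3, 293.8 and 389.3 CPM and those at high sulfate 184.5, 129.8 and 218.3 CPM, so that all 3 sulfate levels were separate. The means were 40730 ± 8820, 354.8 ± 53.0 and 177.5 ± 44.7 CPM (SD, n = 3). Low exceeded middle sulfate by a log2 difference of 6.84 ± 0.29 and high sulfate by 7.85 ± 0.31 (edgeR, adjusted p = 8.32e-15 and 1.28e-15). miR395 ranked 1 of 144 by log2 difference in all 4 comparisons of low sulfate, and the next row reached 1.37 and 1.57 without and 2.62 and 4.11 with cadmium, against middle and high sulfate in that order. In reads, the family took 6.92 to 7.21% of a low-sulfate library without cadmium, 2.91 to 6.19% with it, and 0.0145 to 0.0373% of any library at middle or high sulfate.

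High against middle sulfate was a small step by comparison. Without cadmium the log2 difference was -0.37 ± 0.23 (edgeR, adjusted p = 0.999). With cadmium it was -1.01 ± 0.23 (edgeR, adjusted p = 0.0445), and this call was lost without any 1 of 14 of the 18 libraries, with adjusted p-values up to 0.559 when +CdH2 was left out. The miR395 counts behind it were low, 127.2 to 351.8 reads a library at high sulfate with cadmium, and the library with the fewest listed reads of all, +CdH3 with 498198, is among them.

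**Figure D1:**
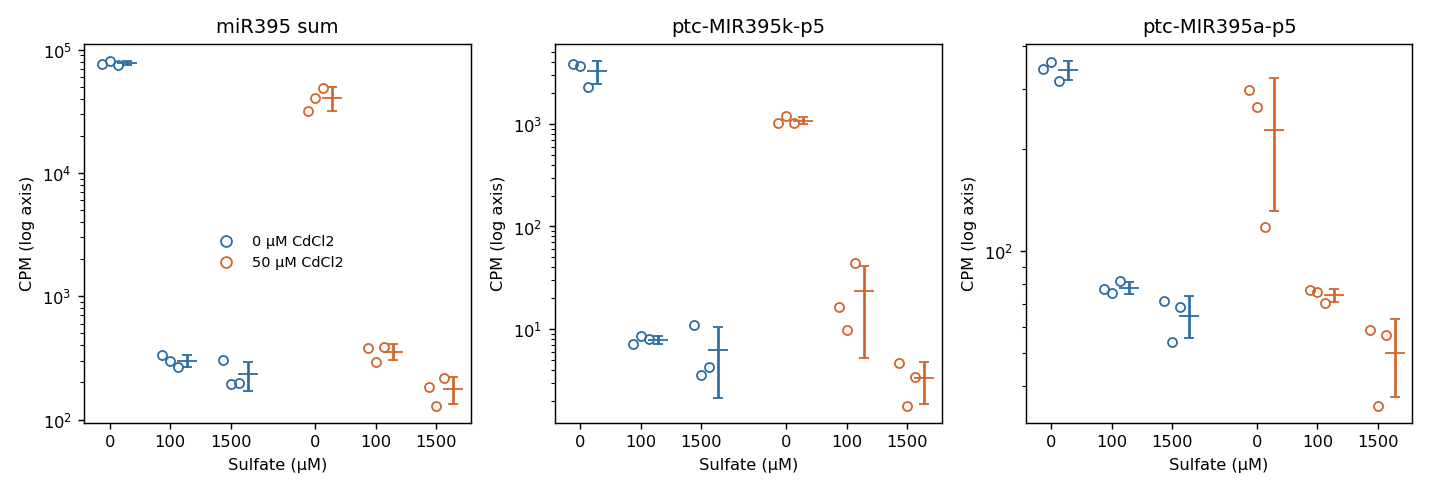
CPM (counts scaled by library, log axis) of the miR395 sum and of the 5p strands of the k and a hairpins, by sulfate supply (µM). Circles are libraries, the bar and whiskers beside them the mean ± SD of 3. The sum reaches 75660 to 80830 CPM at 0 µM sulfate without cadmium and 31800 to 49430 CPM with it, against 129.8 to 389.3 CPM elsewhere, and ptc-MIR395a-p5 spans a much narrower range than the other panels.

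Of the 15 sequences 14 passed the filter on low counts; mdm-MIR395b-p5, with 16 reads in all, did not. Of the 14, 8 passed only through their low-sulfate libraries and so had to be higher there: stu-miR395a_1ss1CA, stu-miR395a_L+1, stu-miR395a_L+2, stu-miR395a_L+3, ptc-MIR395d-p5_1ss5TC, ptc-MIR395i-p5, vvi-MIR395g-p5 and aly-miR395e-5p_L-1R+3. Their differences between low and other sulfate are descriptions. The other 6, ptc-miR395b, ptc-miR395a and the 5p strands of a, b, c and k, would have passed on the middle and high sulfate libraries alone. All 6 were higher at low than at middle and than at high sulfate at either cadmium level, by edgeR with adjustment over 367 sequences. Of all 367 sequences 5.18% were called higher against middle sulfate without and 19.6% with cadmium, and 4.9% and 21.8% against high sulfate. These shares include the family itself, whose 14 tested sequences were all called higher in each comparison. Without cadmium the family made up 14 of the 19 sequences called against middle and of the 18 called against high sulfate. With cadmium 72 and 80 sequences were called. The median log2 difference from middle sulfate over all 367 was 0.07 without and 0.15 with cadmium.

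The guide ptc-miR395b went from 177.1, 160.1 and 110.4 CPM at middle to 61930, 65410 and 63430 CPM at low sulfate without cadmium, a log2 difference of 8.74 ± 0.39 (edgeR, adjusted p = 5.45e-13). With cadmium the values were 190.9, 134.8 and 178.5 CPM at middle and 19260, 30870 and 40380 CPM at low sulfate (7.49 ± 0.37, edgeR, adjusted p = 3.90e-12). High sulfate gave 150.0, 98.61 and 73.56 CPM without and 81.76, 70.29 and 111.7 CPM with cadmium. No low-sulfate library overlapped with any other. Its variant stu-miR395a_1ss1CA was far less abundant, with 2255 ± 420 CPM at low and 2.95 ± 1.29 CPM at middle sulfate without cadmium (SD, n = 3).

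The hairpin on chromosome 2 changed less with sulfate than the sequences outside it that pass the filter without the low-sulfate libraries. Its 5p strand, ptc-MIR395a-p5, had 77.18, 75.06 and 81.58 CPM at middle and 343.4, 359.0 and 316.4 CPM at low sulfate without cadmium, a ratio of 4.36 and a log2 difference of 2.12 ± 0.29 (edgeR, adjusted p = 1.18e-05). With cadmium the values were 76.57, 75.57 and 70.55 CPM at middle and 296.3, 265.1 and 117.8 CPM at low sulfate (1.60 ± 0.29, edgeR, adjusted p = 0.000338). At high sulfate it had 54.16 to 71.23 CPM without and 35.15 to 58.70 CPM with cadmium. Its low-sulfate libraries were above all the others, but by a smaller factor than for the 4 sequences outside this hairpin that pass the filter without them. The guide of the same hairpin, ptc-miR395a, rose by 2.96 ± 0.27 without and by 2.53 ± 0.28 with cadmium (edgeR, adjusted p = 2.22e-08 and 4.90e-07). The other 4 sequences that pass the filter without the low-sulfate libraries rose by 6.89 to 8.86 on the log2 scale without and by 5.55 to 9.14 with cadmium. The deposited ptc-miR395a values were not whole numbers in 5 of the 6 low-sulfate libraries, and the part that reads of near-identical relatives have in them was not tested.

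The make-up of the family differed between sulfate levels. Both arms of the MIR395a hairpin together took 29.2, 30.7 and 37.4% of the miR395 reads at middle sulfate without cadmium, and 0.648, 0.617 and 0.605% at low sulfate. With cadmium they took 24.97, 30.6 and 22.6% at middle and 1.13, 0.885 and 0.502% at low sulfate, and at high sulfate 27.7 to 41.1% over the 6 libraries. The widest exact (Clopper-Pearson) 95% interval was 24.3 to 41.2%, for +CdH3; such intervals cover counting error only, since PCR reads are not independent molecules. The groups did not overlap, and the difference of low from middle sulfate was -31.8 percentage points without and -25.2 with cadmium (exact permutation test, two-sided, p = 0.1 for each, the smallest p that 3 against 3 libraries allow). These shares depend on how reads listed at several hairpins are summed: with only the largest hairpin entry of each sequence, the MIR395a strands took 56.4, 60.7 and 64.1% at middle and 2.13, 2.05 and 2.17% at low sulfate without cadmium. With cadmium they took 50.03, 55.5 and 41.1% at middle and 2.64, 2.57 and 1.67% at low sulfate, again without overlap.

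The leading guide ptc-miR395b took 80.2, 80.9 and 83.8% of the family at low sulfate without cadmium, and 52.7, 53.7 and 41.3% at middle sulfate. With cadmium it took 60.6, 75.3 and 81.7% at low sulfate, and 50.1, 45.9 and 45.8% at middle sulfate. Over the 6 high-sulfate libraries it took 36.9 to 54.2%. The low-sulfate libraries lay above all others in share (exact permutation test, two-sided, p = 0.1 for low against middle sulfate at either cadmium level), and the differences of the means were 32.5 points without and 25.3 points with cadmium. Between +Cd and −Cd at low sulfate the share differed by -9.13 points with overlapping ranges (exact permutation p = 0.3), and by -3.14 points without +CdL1. With only the largest hairpin entry of each sequence, ptc-miR395b held less of the family. Low sulfate without cadmium gave 43.9, 44.8 and 50.02%, and middle sulfate 16.96, 17.7 and 11.8%. Adding cadmium gave 23.5, 36.5 and 45.4% for low and 16.7, 13.9 and 13.9% for middle sulfate. The differences were then 30.8 and 20.3 points. All 5p strands together made up 16.5, 15.4 and 11.3% of the family at low sulfate without cadmium, and 36.5, 20.7 and 13.9% with it; +CdL1 stood apart from the other low-sulfate libraries in this share.

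**Figure D2:**
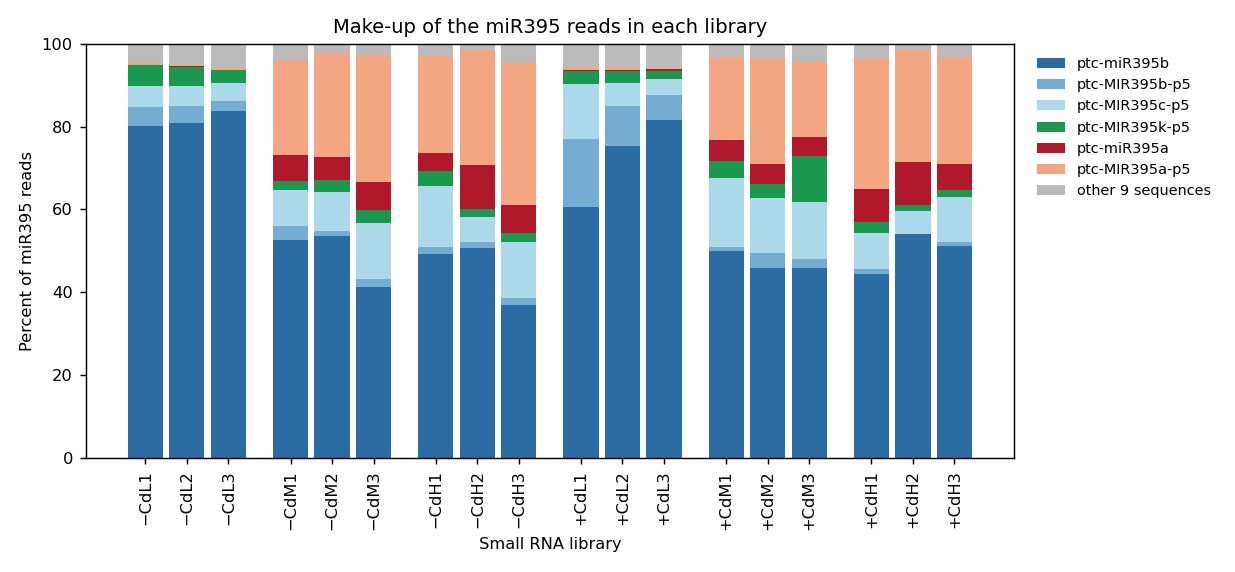
Share of the miR395 reads (percent) taken by 6 sequences and by the other 9 together, 1 bar for each small RNA library. The 2 strands of the MIR395a hairpin (red tones) take 22.6 to 41.1% at middle and high sulfate and 0.502 to 1.13% at low sulfate, where ptc-miR395b (dark blue) takes 60.6 to 83.8%.

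Cadmium lowered miR395 where sulfate was low. The sum fell from 77890 ± 2660 to 40730 ± 8820 CPM (SD, n = 3), the libraries did not overlap, and the log2 difference was -0.94 ± 0.23 (edgeR, adjusted p = 0.00527), beside a median of 0.05 over the 144 rows. The call was lost under quantile normalisation, with -0.16 and an adjusted p of 0.799, and when each sequence kept only its largest hairpin entry, with -0.63 and 0.0523. At middle sulfate the difference was 0.24 ± 0.23 and at high sulfate -0.40 ± 0.23 (edgeR, adjusted p = 0.538 and 0.251). The difference between the cadmium effects at low and at middle sulfate was -1.17 ± 0.32 (edgeR, adjusted p = 0.0296), while the median of this difference over the 144 rows was 0.45. That call was lost without any 1 of 6 libraries (−CdL1, −CdL2, −CdM2, −CdM3, +CdL1 and +CdM1, with adjusted p-values of 0.0547 to 0.0882), and under quantile normalisation it became 0.07 (adjusted p = 0.956). Against high sulfate it was -0.54 ± 0.32 (edgeR, adjusted p = 0.310).

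At low sulfate 4 of the 14 sequences were lower with cadmium and 0 higher by edgeR (0 higher also by DESeq2 and without adjustment at 0.05), where 5.72% of all 367 sequences were lower. These were ptc-MIR395k-p5, ptc-miR395b, stu-miR395a_1ss1CA and stu-miR395a_L+2, the first with 3812, 3631 and 2299 CPM without and 1018, 1180 and 1029 CPM with cadmium. Its groups did not overlap, and its log2 difference of -1.59 ± 0.37 passed the test (edgeR, adjusted p = 0.00422). ptc-miR395b fell by 1.08 ± 0.28 (edgeR, adjusted p = 0.0101), a call that quantile normalisation ended with 0.169. stu-miR395a_1ss1CA fell by 1.11 ± 0.30 and stu-miR395a_L+2 by 1.24 ± 0.37 (edgeR, adjusted p = 0.0120 and 0.0272). Both calls were lost without +CdL1 (adjusted p = 0.0522 and 0.0979), the latter also without −CdL3 (0.0849). The 4 calls are not separate observations, because these 2 sequences are ptc-miR395b with 1 base changed or with 2 more bases at the 5′ end. Both also passed the low-count filter only through low-sulfate libraries. The 5.72% of all sequences includes these 4, among 21 called lower.

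By contrast ptc-MIR395b-p5 had 3436, 3304 and 1849 CPM without and 5233, 3940 and 2987 CPM with cadmium in the libraries without sulfate. Its groups overlapped, with a log2 difference of 0.50 ± 0.36 (edgeR, adjusted p = 0.389). ptc-MIR395c-p5 had 4003, 3967 and 3252 CPM without and 4199, 2295 and 1856 CPM with cadmium, again with overlap (-0.43 ± 0.36, edgeR, adjusted p = 0.470). A ratio of 2 strands within 1 library does not depend on how libraries are scaled. The reads of k to those of b stood at 1.11, 1.10 and 1.24 without and at 0.195, 0.300 and 0.344 with cadmium, a difference of -2.08 on the log2 scale. The reads of c to those of b stood at 1.17, 1.20 and 1.76 without and 0.803, 0.583 and 0.621 with cadmium (-1.03). Both ratios have the b strand as denominator, so they are not separate observations, and b was chosen after its values were seen. In each the groups did not overlap (exact permutation test over the 3 against 3 libraries, two-sided, p = 0.1 for each, unadjusted and the smallest possible).

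At middle sulfate ptc-MIR395k-p5 moved the other way. It had 7.22, 8.58 and 7.97 CPM without and 16.5, 9.77 and 44.0 CPM with cadmium, and it was the only 1 of 14 sequences called higher, by 1.51 ± 0.45 (edgeR, adjusted p = 0.0458; 6.54% of all sequences were called higher). Without +CdM3 the difference was 0.75 (adjusted p = 0.299), and leaving out any 1 of 7 other libraries also ended the call. The cadmium effect on ptc-MIR395k-p5 at low sulfate differed from that at middle sulfate by -3.10 ± 0.59 (edgeR, adjusted p = 0.00451), with 0.817% of all sequences called lower in that contrast. It was the only sequence of the family called there; DESeq2 called 3. At high sulfate edgeR called 0 of 14 sequences for cadmium, where 6.81% of all sequences were called; DESeq2 called 0 as well, and 0 had an unadjusted p under 0.05. Between high and middle sulfate edgeR called 0 of 14 at either cadmium level, and 0% of all sequences. DESeq2 called 0 without and 2 lower with cadmium, and 1 and 7 were lower at an unadjusted p under 0.05. Of these 14, the 8 that passed the filter only through low-sulfate libraries had few reads at middle and high sulfate. Counts of calls in contrasts among those levels, cadmium at middle and high sulfate included, therefore say little about them.

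**Figure D3:**
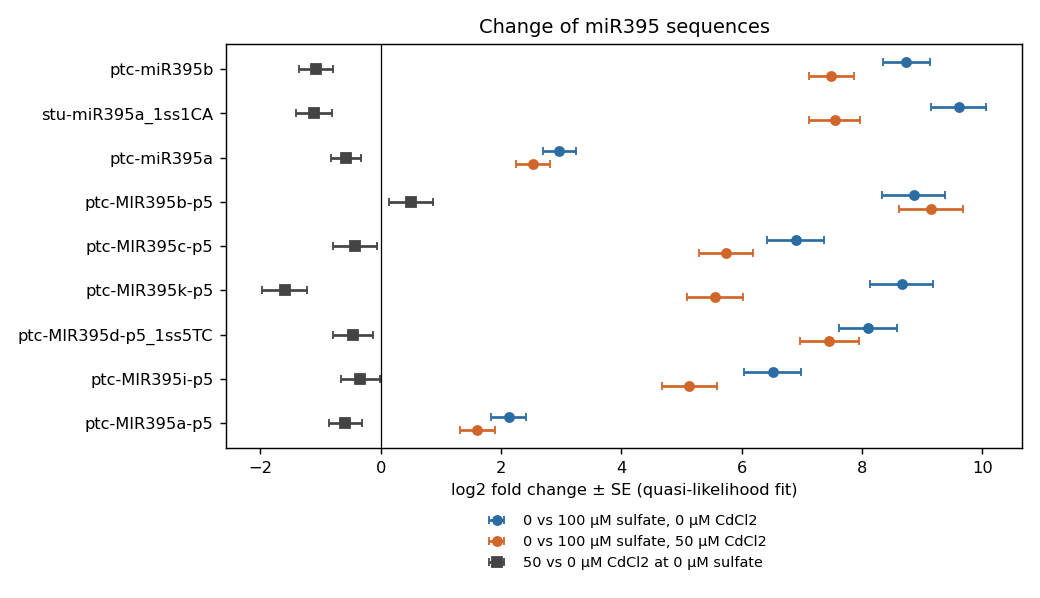
log2 fold change ± SE of 9 miR395 sequences for 0 against 100 µM sulfate without (blue) and with (orange) 50 µM CdCl2, and for cadmium at 0 µM sulfate (grey squares). ptc-miR395a and ptc-MIR395a-p5 lie at 1.60 to 2.96 for sulfate. The 4 others that pass the low-count filter without the low-sulfate libraries lie at 5.55 to 9.14. The remaining sequences shown passed only through the low-sulfate libraries, so their rise is a description. For cadmium at 0 µM sulfate ptc-MIR395k-p5 lies at -1.59 and ptc-MIR395b-p5 at 0.50.

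The degradome pools gave 16 pairs of a miR395 name and a gene, on 9 genes. The names ptc-MIR395c-p5 and ptc-MIR395j-p5, both listed on Potri.003G168500, stand for the same sequence. Of the 16 pairs, 8 were of category 0 in both pools, by the usual degradome scheme the class in which the cut position holds the most reads of its transcript. Over all 1465 pairs listed, category 0 made up 23.5% without and 23.7% with cadmium. The 8 pairs are not separate observations, because they are similar guides listed on the same reads of 3 genes. Potri.010G081200 and Potri.008G159000 also share nearly all of their reads, and a difference from the share over all pairs was not tested. Only 3 genes had reads at the site in both pools: Potri.010G081200, Potri.008G159000 and Potri.002G092400. The listed cut site lay opposite base 10 of the small RNA, counted from its 5′ end, in 62 pairs of small RNA and transcript. It lay opposite base 9 in 2, which are a single sequence under 2 names. Sites are listed also for pairs without reads in a pool, so these counts describe the listed sites and are not a test of where cutting fell. The sequences of the target sites were not used here.

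Potri.010G081200 (chromosome 10, 10711553 to 10715080 as the tables list it) had 48 reads at its site without cadmium (exact Poisson 95% interval 35.4 to 63.6) and 75 with it (59.0 to 94.0). Potri.008G159000 (chromosome 8, 10799021 to 10806057) had 49 (36.3 to 64.8) and 76 (59.9 to 95.1). These are nearly the same reads: 48 and 75 of them were shared by all 7 transcripts of both loci, 98.0% and 98.7%, and Potri.008G159000 had 1 read of its own in each pool. The degradome therefore cannot tell cutting of the one locus from cutting of the other. In the tables' normalised unit the site of Potri.010G081200 held 614.6 without and 1102 with cadmium, ranks 55 and 35 among the 855 genes by their highest site. Of these genes only 607 without and 585 with cadmium had any signal above 0. With 1 pool for each cadmium level no test is possible.

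The guides differed in their match to these loci by the deposited alignment score, where a lower score is a closer match. On Potri.010G081200 the score was 0.5 for stu-miR395a_1ss1CA, 1.5 for ptc-miR395b and 3 for ptc-miR395a. On Potri.008G159000 ptc-miR395a had the lowest score instead, with 2 for ptc-miR395a, 2.5 for stu-miR395a_1ss1CA and 3.5 for ptc-miR395b. The guide with 1 more base at the 5′ end, stu-miR395a_L+1, was listed on Potri.010G081200 with its cut 1 base further on, where 0 reads lay without and 3 with cadmium. Potri.002G092400 (chromosome 2, 6577832 to 6582212) had 9 reads in each pool (4.12 to 17.1), over 8 transcripts, with a score of 3 for ptc-miR395b and stu-miR395a_1ss1CA, and it ranked 164 without and 159 with cadmium.

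The other 6 genes had 3 reads or fewer in either pool. Potri.017G076800 had 3 reads without cadmium, category 2, and none with it, where a count of 0 allows up to 3 reads as a one-sided limit. The remaining 5 genes, Potri.001G353100, Potri.002G066600, Potri.003G168500, Potri.007G077100 and Potri.015G073400, rested on 1 read in 1 pool, category 4. For 4 of these 6 the listed small RNA was a 5p strand, and for Potri.015G073400 and Potri.017G076800 it was ptc-miR395a.

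mRNA levels of the 9 loci are given in FPKM, a unit scaled by transcript length and library depth, so that levels can be compared between loci; in such whole-leaf samples fewer cells of a type and less RNA per cell cannot be told apart. All 9 loci passed the filter of a mean of 1 FPKM, along with 23166 loci in all. For low against middle sulfate without cadmium 5 of the 9 were lower and 0 higher by limma on log2(FPKM + 1) with Benjamini-Hochberg adjustment, with 0 higher also at an unadjusted p under 0.05; 9.5% of all loci were called lower and 5.03% higher. The median difference of the 9 was -0.63, beside 0.01 for all loci. All differences are in log2(FPKM + 1) units, and the added 1 shrinks them for weakly expressed loci. miR395 and target levels come from separate libraries.

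Potri.010G081200 had 6.27, 6.30 and 4.998 FPKM at low sulfate without cadmium, and 28.01, 22.04 and 26.9 at middle and 30.2, 34.9 and 25.8 at high sulfate. With cadmium the 3 levels had 11.2, 11.9 and 12.8, then 29.1, 33.0 and 37.0, then 35.6, 38.2 and 34.6 FPKM. The low-sulfate libraries were below all others at either cadmium level, and those without cadmium below those with it. The difference of low from middle sulfate was -1.96 ± 0.12 without cadmium (limma, adjusted p = 6.83e-07) and -1.39 ± 0.12 with it (limma, adjusted p = 7.92e-06). Against high sulfate the differences were -2.19 ± 0.12 and -1.52 ± 0.12 (limma, adjusted p = 2.06e-07 and 4.16e-06). By size of the decrease it ranked 321 and 220 of 23166 loci against middle sulfate and 59 and 234 against high sulfate, without and with cadmium.

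Potri.008G159000, which shares the cut reads, had 31.3, 17.8 and 15.4 FPKM at low, 49.6, 44.1 and 70.8 at middle and 48.4, 47.7 and 46.7 at high sulfate without cadmium. With cadmium it had 32.7, 43.5 and 31.5 FPKM at low, 60.8, 87.3 and 92.9 at middle and 55.5, 56.0 and 36.9 at high sulfate. Low was separate from middle sulfate at both cadmium levels, and overlapped with high sulfate when cadmium was present. The difference from middle sulfate was -1.35 ± 0.25 without and -1.13 ± 0.25 with cadmium (limma, adjusted p = 0.00223 and 0.00712). From high sulfate it was -1.17 ± 0.25 without cadmium (limma, adjusted p = 0.0199), a call lost without −CdL2, −CdL3, −CdH2 or −CdH3 (adjusted p = 0.0586 to 0.0832), and -0.44 ± 0.25 with it (adjusted p = 0.230).

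Potri.002G092400 had 15.8, 16.9 and 15.5 FPKM at low, 28.1, 24.6 and 23.8 at middle and 37.5, 22.7 and 23.9 at high sulfate without cadmium. With cadmium the 3 levels overlapped, with 24.2, 19.8 and 19.7 at low, 19.2, 27.3 and 27.8 at middle and 19.3, 23.0 and 26.9 FPKM at high sulfate. Without cadmium low was separate from both other levels, at -0.63 ± 0.18 from middle and -0.73 ± 0.18 from high sulfate (limma, adjusted p = 0.0266 and 0.0351). The first call was lost without any 1 of the 6 libraries compared (adjusted p = 0.0561 to 0.0829), and the second without any 1 of 5 (−CdL1, −CdL2, −CdL3, −CdH1 and −CdH3; 0.0678 to 0.114). With cadmium the differences were -0.20 ± 0.18 and -0.11 ± 0.18 (limma, adjusted p = 0.461 and 0.706). The difference between the cadmium effects at low and at middle sulfate was 0.43 ± 0.25 (limma, adjusted p = 0.330), so that the loss of the call with cadmium is not shown to be a difference between cadmium levels.

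**Figure D4:**
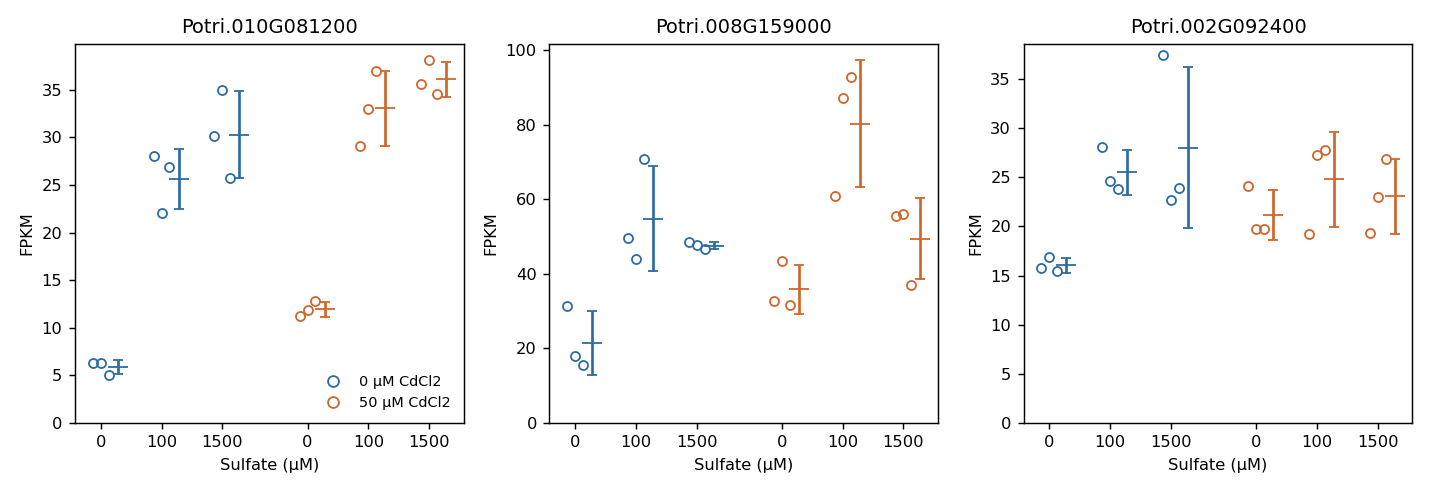
FPKM of the 3 target loci with cut reads in both degradome pools, by sulfate supply (µM), without (blue) and with (orange) 50 µM CdCl2. Circles are libraries, the bar and whiskers the mean ± SD of 3. Potri.010G081200 lies at 4.998 to 6.30 FPKM at 0 µM sulfate without cadmium and 11.2 to 12.8 FPKM with it, below all libraries at the other sulfate levels.

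Of the targets listed on 1 degradome read, Potri.002G066600 was lower at low sulfate as well. It had 12.7, 11.1 and 10.5 FPKM at low and 32.5, 21.4 and 31.6 at middle sulfate without cadmium, separate groups with a difference of -1.23 ± 0.25 (limma, adjusted p = 0.00471). With cadmium it had 13.5, 10.9 and 15.4 FPKM at low and 32.0, 20.4 and 16.7 at middle sulfate (-0.71 ± 0.25, limma, adjusted p = 0.0654). The differences from high sulfate were -1.04 ± 0.25 without and -0.90 ± 0.25 with cadmium (limma, adjusted p = 0.0364 and 0.0224). The first of these was lost without any 1 of 5 libraries (−CdL1, −CdL2, −CdL3, −CdH2 and −CdH3, adjusted p up to 0.159), and the second without +CdL1, +CdL2 or +CdH2 (up to 0.0907). The degradome ties this locus to the family by a single read for mdm-MIR395b-p5, a sequence with 16 reads in all 18 libraries.

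Potri.003G168500 had 11.2, 10.01 and 15.3 FPKM at low and 18.4, 21.8 and 20.3 at middle sulfate without cadmium, with no overlap (-0.70 ± 0.13, limma, adjusted p = 0.00221). At high sulfate without cadmium it had 13.98, 14.1 and 16.2 FPKM, overlapping with low (-0.28 ± 0.13, limma, adjusted p = 0.265). With cadmium it had 12.1, 12.6 and 10.5 at low and 12.3, 10.1 and 9.95 FPKM at middle sulfate, overlapping (0.11 ± 0.13, limma, adjusted p = 0.595). High sulfate with cadmium gave 9.95, 8.44 and 8.88 FPKM, below low (0.33 ± 0.13, limma, adjusted p = 0.0845). Potri.001G353100 went the other way: at low sulfate with cadmium it had 34.7, 32.8 and 33.8 FPKM, against 20.4, 27.1 and 24.99 at middle sulfate, a rise of 0.47 ± 0.09 (limma, adjusted p = 0.00209). It also exceeded high sulfate with cadmium, by 0.52 ± 0.09 (limma, adjusted p = 0.000946). Without cadmium its low-sulfate differences were 0.14 ± 0.09 from middle and 0.21 ± 0.09 from high sulfate (limma, adjusted p = 0.332 and 0.208).

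In counts, low against middle sulfate with cadmium gave 2 lower and 1 higher of the 9 loci (8.38% and 9.32% of all loci), low against high sulfate without cadmium 4 lower and 0 higher (2.41% and 1.17%; 1 higher at an unadjusted p under 0.05), and with cadmium 2 lower and 1 higher (9.53% and 10.8%). Between high and middle sulfate limma called 0 of 9 at either cadmium level, with 1 lower at an unadjusted p under 0.05 in each; 0.082% of all loci were called without and 0% with cadmium. Potri.007G077100, at 7.06 to 10.4 FPKM over the 18 libraries, Potri.015G073400 and Potri.017G076800 were called in no comparison. Potri.017G076800 was the most abundant of the 9, with 112.2 ± 7.0 FPKM under low, 136.9 ± 17.97 under middle and 145.7 ± 39.9 under high sulfate without cadmium (SD, n = 3), and these ranges overlapped. With cadmium it had 94.3, 123.3 and 134.7 FPKM at low, 128.8, 142.2 and 133.8 at middle and 142.9, 183.6 and 170.8 at high sulfate. High was then separate from both other levels, at -0.50 ± 0.18 for low against high and 0.29 ± 0.18 for high against middle sulfate (limma, adjusted p = 0.0595 and 0.724).

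At low sulfate, Potri.010G081200 was higher with cadmium and miR395 lower. The miR395 call was lost under quantile normalisation and with the largest hairpin entry only, and a link to the locus was not tested. The level of Potri.010G081200 went from 5.85 ± 0.74 to 11.9 ± 0.78 FPKM (SD, n = 3), a ratio of 2.04 and a difference of 0.92 ± 0.12 (limma, adjusted p = 0.00329), the only call among the 9 loci, with 0.319% of all loci called higher. Its libraries with cadmium also lay above those without at middle sulfate, at 29.1 to 37.0 against 22.04 to 28.01 FPKM. At middle sulfate the difference was 0.35 ± 0.12 and at high sulfate 0.26 ± 0.12 (limma, adjusted p = 0.0537 and 0.187), and the difference between the cadmium effects at low and middle sulfate, 0.57 ± 0.17, did not pass (limma, adjusted p = 0.0671). Potri.008G159000 stood at 21.5 ± 8.56 and 35.9 ± 6.59 FPKM without and with cadmium at low sulfate, just separate in range, with a difference of 0.76 ± 0.25 (limma, adjusted p = 0.189).

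Potri.003G168500 and Potri.001G353100 were lower with cadmium where sulfate was not low. The first fell by 0.85 ± 0.13 at middle and by 0.64 ± 0.13 at high sulfate (limma, adjusted p = 0.000378 and 0.00502), and its difference at low sulfate was -0.03 ± 0.13 (adjusted p = 0.953). Its cadmium effects at low and middle sulfate differed by 0.82 ± 0.19 (limma, adjusted p = 0.0170; 4.85% of all loci were called higher in this contrast), the only such difference called among the 9. The second fell by 0.32 ± 0.09 at middle and by 0.30 ± 0.09 at high sulfate (limma, adjusted p = 0.0176 and 0.0353). The first of these calls was lost without +CdM1 (adjusted p = 0.0659), the other without any 1 of the 6 libraries compared (0.0554 to 0.106). Among all loci 13.1% were lower with cadmium at middle and 8.59% at high sulfate, beside 2 of the 9 at each level.

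**Figure D5:**
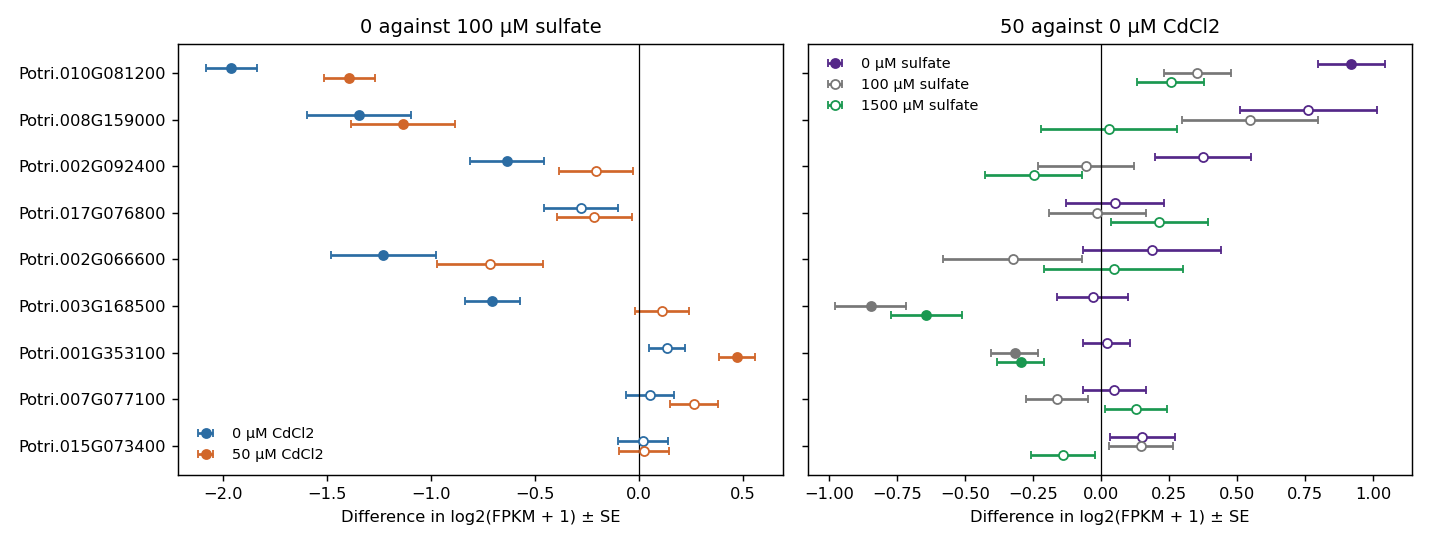
Difference in log2(FPKM + 1) ± SE of the 9 target loci, for 0 against 100 µM sulfate (left) and for 50 against 0 µM CdCl2 (right); filled points passed an adjusted p under 0.05. Potri.010G081200 has the lowest values on the left, -1.96 and -1.39, and the highest on the right at 0 µM sulfate, 0.92.

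As a description over the 6 group means, with 2 groups at low sulfate far from the other 4, the correlation r of a target's log2 level with that of miR395 was -0.98 for Potri.002G066600, -0.963 for Potri.010G081200, -0.895 for Potri.017G076800, -0.855 for Potri.002G092400 and -0.826 for Potri.008G159000. It was 0.784 for Potri.001G353100, 0.754 for Potri.007G077100, 0.25 for Potri.015G073400 and -0.149 for Potri.003G168500. Since the points fall into 2 clusters, r mainly tells whether low sulfate differed from the rest.

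The small RNA rows whose levels over the 18 libraries were most like those of miR395 among 143 were miR6427 (r = 0.688), PC-5p-96902_81 (0.672), PC-5p-4595_2171 (0.628), PC-5p-10184_1113 (0.617) and PC-3p-151199_43 (0.598). miR6427 had 874.6 CPM at low and 670.9 at middle sulfate without cadmium, far from the 259-fold step of miR395. The rows most unlike it were miR399 (-0.840), miR827 (-0.742), miR7813 (-0.697), PC-5p-54831_178 (-0.693) and miR6468 (-0.659). miR399, in Arabidopsis a miRNA of phosphate starvation, had 4245 CPM at low and 14820 CPM at middle sulfate without cadmium, a log2 difference of -1.80 (edgeR, adjusted p = 0.00203). All rows share libraries and scaling, and the median log2 difference over the 144 rows was 0.03 in the same comparison.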

How the data were processed

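Values are those the authors deposited. Small RNA values are expected counts, reads the authors divided over hairpin entries, per the file headers; their mapper is not given in the sources used here, nor is a genome build. Levels of mRNA are FPKM per locus as the authors deposited them, per the file headers, with TopHat2 2.1.1 named in the submitters' processing notes, so that mRNA depth is unknown. The degradome counts of raw reads, the normalised signal per site and the alignment score are the authors', per the file headers. The members and lists were chosen with earlier results of these data known. Reads were summed per sequence, and per family for a table of 144 rows; sums were rounded for edgeR 4.0.16 (R 4.3.3; trimmed-mean scaling, low-count filter, 6 group means, 12 residual degrees of freedom), and log2(FPKM + 1) was tested with limma 3.58.1 for loci with a mean of at least 1 FPKM. Adjusted p-values are Benjamini-Hochberg, called under 0.05, over all rows tested. Shares were compared by exact permutation. Libraries held 498198 to 2934283 listed small RNA reads. Named sequences were the family sum, the 3 with the most reads and those with a call or a hairpin of interest; named loci were those with category 0 to 2 sites or a call at low sulfate. The strand ratios and the MIR395a and k comparisons were chosen after their values were seen. Alternatives included DESeq2 1.42.0, other scalings and filters, and each library left out. Both tests were tried on simulated data. The planned cell-type and sulfate-pathway lists could not be matched to loci and gave no result.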

Additional observations from a re-analysis of the deposited data

Results flagged for a closer look

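A cadmium effect that differed between sulfate levels, by a test of the difference itself, was found for 3 results. For the miR395 sum the effect at low sulfate less that at middle sulfate was -1.17 (edgeR, adjusted p = 0.0296). That call was lost without any 1 of 6 libraries, with no filter and with the largest hairpin entry only. Under quantile normalisation the difference became 0.07. For ptc-MIR395k-p5 the same difference was -3.10 (edgeR, adjusted p = 0.00451). The CPM ranges without and with cadmium did not overlap at low sulfate, where cadmium was lower, or at middle sulfate, where it was higher. At middle sulfate the strand had only 13, 24 and 21 reads without and 31, 15 and 53 with cadmium. Its rise at middle sulfate was 0.75 and not called without +CdM3. For Potri.003G168500 the difference between cadmium effects was 0.82 (limma, adjusted p = 0.0170), with cadmium lowering the locus at middle but not detectably at low sulfate. Groups of 3 libraries are too small for a rule on single outlying libraries.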

How the results depend on the processing

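The miR395 sum and the 6 sequences that pass the filter without the low-sulfate libraries stayed higher at low sulfate under every alternative listed here; the other 8 tested passed only through those libraries. The sum's difference of high from middle sulfate with cadmium was no longer called with RLE size factors (-0.98) and quantile normalisation (-0.55), and ran from -1.16 to -0.81 with each library left out. Its cadmium effect at low sulfate was -0.16 with quantile normalisation and -0.63 with the largest hairpin entry only; at middle sulfate quantile normalisation gave -0.23. The cadmium effect at low minus middle sulfate became 0.070 with quantile normalisation, -1.17 (not called) with no filter and -0.86 with the largest hairpin entry, and ran from -1.35 to -1.06 with each library left out; the cause was not tested. Sequences lower in that contrast numbered 2 with RLE, quantile normalisation or no filter and 3 with DESeq2, and 1 to 2 with each library left out. Sequences lower at high than middle sulfate with cadmium numbered 1 with quantile normalisation, 2 with DESeq2, 3 with no filter and 0 to 2 with a library left out. Sequences higher with cadmium at middle sulfate numbered 0 with quantile normalisation, 0 with the replicate block and 0 to 1 with a library left out, and quantile normalisation called 1 lower for the cadmium effect at low minus high sulfate. Of target loci, quantile normalisation called 1 higher and 1 lower for cadmium at middle sulfate, and fitting only the 2 groups called 1 lower there; leaving out libraries gave 0 to 1 higher and 1 to 2 lower. Low against high sulfate without cadmium gave 2 lower with no filter, 2 with the replicate block, 1 with only the 2 groups and 1 to 4 with a library left out; with cadmium, 1 to 3 lower and 1 to 2 higher. Cadmium at high sulfate gave 1 lower with the replicate block, 1 with only the 2 groups and 1 to 2 with a library left out. Cadmium effects higher at low than at middle or high sulfate numbered 2 and 1 with a pseudocount of 0.1, and 1 to 2 and 0 to 1 with a library left out. Only the 2 groups gave 0 higher for low against middle sulfate with cadmium, and libraries left out gave 1 to 2. The share of ptc-miR395b was above that at middle or high sulfate by 18.04 to 38.5 percentage points with any library left out; its cadmium difference at low sulfate ran from -13.7 to -3.14 points, the latter without +CdL1, and its differences of high from middle sulfate without cadmium and of cadmium at middle and at high sulfate changed sign with a library left out. Keeping categories 0 and 1 left 3 of 9 target genes. Libraries of different groups with the same replicate number had correlations of -0.288 to 0.268 for mRNA and -0.338 to 0.397 for small RNA. These exceeded 0.1 in 7 of 45 mRNA and 12 of 45 small RNA pairs. They show no steady pairing, but groups of 3 libraries cannot exclude one. The replicate block changed no other count by over 1.5 times. Low depth at middle and high sulfate, down to 127.2 miR395 reads, limits those comparisons, and intervals cover counting error only.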
